A study of Rattus norvegicus with 14 samples.

Results

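The interval between 38 and 45 Mb of rat chromosome 13 was described as 1 kb windows of DNA methylation on the rn7 assembly. All windows of chromosome 13 that start after 38 Mb and end by 45 Mb were taken, which gave 774 of the 194367 windows measured in the series. Of these, 540 (69.8%) had a value in all 14 samples, and these common windows were used unless stated otherwise. The interval was chosen because windows differing between the rat lines had been seen there, so every line difference below is a description. Calls from a test fitted to all windows of the series are given to describe windows, and nothing about the interval is read from them.

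The assay was reduced representation bisulfite sequencing (RRBS) of DNA from the left soleus muscle, which is made mainly of slow-twitch fibres and holds posture. One group held 6 samples of high-running capacity rats (HCR) and the other 8 samples of low-running capacity rats (LCR), lines bred apart by selection for running capacity. All were females of 23 to 24 months from generation 44 of the selection, founded on genetically heterogeneous N:NIH stock, on standard chow, and all were sampled at baseline with no treatment. Whether each numbered replicate was a separate rat is not stated, so p-values measure only the spread between these samples, which may be partly technical. A whole muscle holds fibre nuclei, vessel, immune and connective tissue cells, so that a changed mix of cells and a changed level within cells cannot be told apart. The tissue was not checked against marker genes, because the windows carry no gene names.

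Cytosine methylation in mammals sits almost entirely on CpG dinucleotides. CpG-rich islands, many of them at gene starts, are usually free of methylation, whereas isolated CpGs in gene bodies and between genes are usually methylated. Levels between these extremes are common at island edges and distal regulatory elements. RRBS cuts DNA at CCGG sites and sequences short fragments, so it reads CpG-rich sequence more densely than the rest. A window value is the percentage of methylated calls over the cytosines read in that window, and its read depth is unknown.

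The interval held windows of every methylation level. Its common windows were at under 10% in 130 cases (24.1%), at 10 to 30% in 95, at 30 to 50% in 149, at 50 to 70% in 126 and at 70% or more in 40 (7.41%), by their mean over all samples. In the rest of chromosome 13 the corresponding classes at the ends held 22.5% and 13.8% of 4346 windows. Windows were unevenly spaced along the interval, with 27 common windows between 41 and 42 Mb and 152 between 44 and 45 Mb.

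Runs of unmethylated common windows were short. Runs of at least 3 adjacent windows with a mean under 10% over all samples numbered 10 and held 33 windows. A run ended wherever a window was absent or lacked a value in some sample. Run length is therefore not the extent of unmethylated DNA, and low levels in the runs follow from the 10% limit. The longest, at chr13:42964001-42969000, had 5 windows with 1.88% ± 0.515 in the 6 HCR samples and 1.31% ± 0.425 in the 8 LCR samples (mean ± SD). The next, at chr13:40080001-40084000, had 4 windows with 1.84% ± 0.695 in HCR and 1.63% ± 0.666 in LCR. The run with the highest level, at chr13:44676001-44679000, had 7.11% ± 1.93 in HCR and 5.74% ± 1.85 in LCR. None of the windows whose lines were separated, described below, lay in these runs.

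The mean level of the interval was lower than that of the rest of the chromosome in every sample. It averaged 34.8% ± 1.51 in the interval and 38.3% ± 1.22 in the rest of chromosome 13 (SD, n = 14). The paired difference was -3.56 percentage points (SE 0.121), and it was negative in 14 of 14 samples. It averaged -3.15 ± 0.317 points in HCR samples (SD, n = 6) and -3.87 ± 0.229 points in LCR samples (SD, n = 8). An exact permutation test that flipped the sign of each sample's difference gave a 2-sided p = 0.000122, the smallest it can give, and an adjusted p = 0.000244 over 2 such tests. All samples were read at the same windows, so the test speaks of these windows in these samples only. Against all other autosomal windows, at 35.0%, the difference was -0.196 points and did not pass (exact permutation p = 0.15). It was positive in 6 of 14 samples. The test pooled the lines, whose samples stood apart relative to all common windows, as given below. That result therefore does not show that the interval was like the other autosomes in either line.

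**Figure D1:**
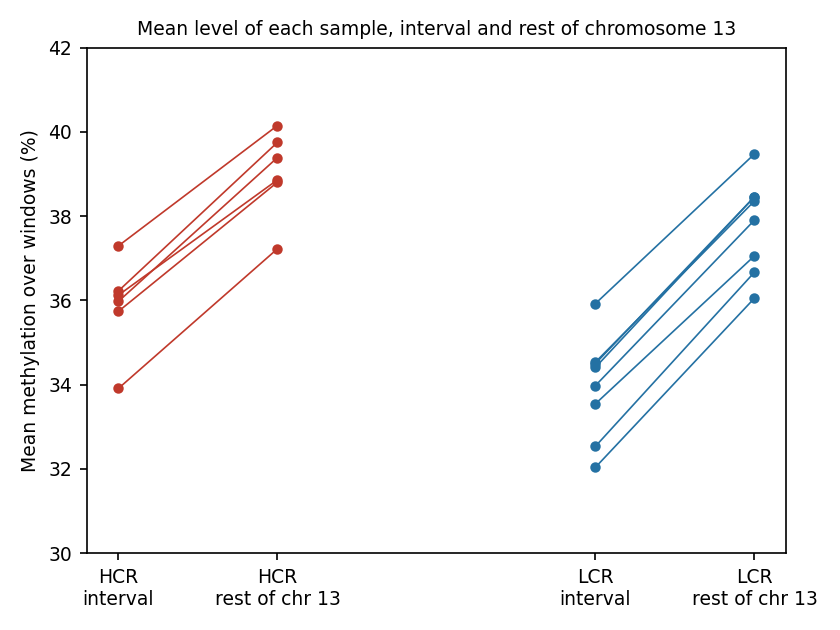
Mean methylation of each sample (y axis, percent) in the interval and in the rest of chromosome 13, for 6 HCR and 8 LCR samples; a line joins the values of one sample. All 14 lines climb towards the rest of the chromosome, by 2.74 to 4.13 points, and the HCR and LCR samples overlap in both.

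Across the interval as a whole the lines overlapped in the deposited levels. The mean level was 35.9% ± 1.10 in the 6 HCR samples and 33.9% ± 1.23 in the 8 LCR samples (mean ± SD), a difference of 1.95 points (SE 0.626). HCR samples ran from 33.9% to 37.3% and LCR samples from 32.04% to 35.9%. HCR replicate 3 lay below 5 of the 8 LCR samples, and LCR replicate 1 lay above 2 of the 6 HCR samples. The same difference was 1.23 points in the rest of chromosome 13 and 1.12 points over all common windows. Without the separated windows the interval still differed by 1.67 points. Relative to each library's own mean over all common windows, every HCR sample stood above every LCR sample. The nearest were HCR replicate 2, with 36.2% in the interval and 36.5% over all common windows, and LCR replicate 1, with 35.9% and 36.5%. With libraries centred the difference of line means was 0.828 points. As the interval was chosen on this contrast, nothing is read from this order.

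A higher mean in HCR was the more frequent direction, at close to the share seen everywhere. HCR had the higher mean in 362 of the 540 windows (67.0%) and in 64.6% of all 135802 common windows. Means differed by at least 10 points in 41 windows of the interval (7.59%), 35 of them higher and 6 lower in HCR, and in 3.902% of all common windows. By level, the mean difference was 0.284 points in windows under 10%, 2.25 at 10 to 30%, 2.58 at 30 to 50%, 2.98 at 50 to 70% and 1.02 at 70% or more. Over all common windows the same classes had 0.36, 1.74, 1.75, 1.15 and 0.698 points.

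Missing values can move with the level of a library, so they were counted here. HCR samples lacked a value in 42.5 ± 18.7 of the 774 windows (SD, n = 6; 22 to 75) and LCR samples in 39.5 ± 30.4 (SD, n = 8; 10 to 101). HCR replicate 3 and LCR replicate 7 lacked the most values of their lines and also had the lowest interval levels, 33.9% and 32.04%. The part of missing values in the line differences was not tested.

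In 14 of the 540 windows (2.59%) every HCR sample lay on one side of every LCR sample, against 0.71% of all common windows. The HCR samples were higher in 12 of these windows and lower in 2. Over all common windows 0.558% were separated with HCR higher and 0.152% with HCR lower. The interval was chosen on this contrast, so nothing is read from the larger share. Centring every library on its own mean changed the split by direction: 13 windows were then separated, 7 higher and 6 lower in HCR. Of the 14 windows, 9 were separated on both scales, and all 4 windows separated only after centring were lower in HCR. The lines overlapped after centring in the windows at 41726001, 42299001, 43299001, 43655001 and 43748001. By limma fitted to all common windows, 15 windows of the interval were called at an adjusted p under 0.05, 11 higher and 4 lower in HCR (2.78%, against 0.569% of all windows). Over all windows 0.405% were called higher and 0.164% lower in HCR. Of the 15 calls, 9 were also separated, and 7 were made again in each of the 14 fits that left out a sample. After centring, the calls at 39017001, 42299001 and 44731001 were not made. The count was 7 to 9 without HCR replicate 1, 2, 3, 4 or 6 or without LCR replicate 3, 5 or 7.

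**Figure D2:**
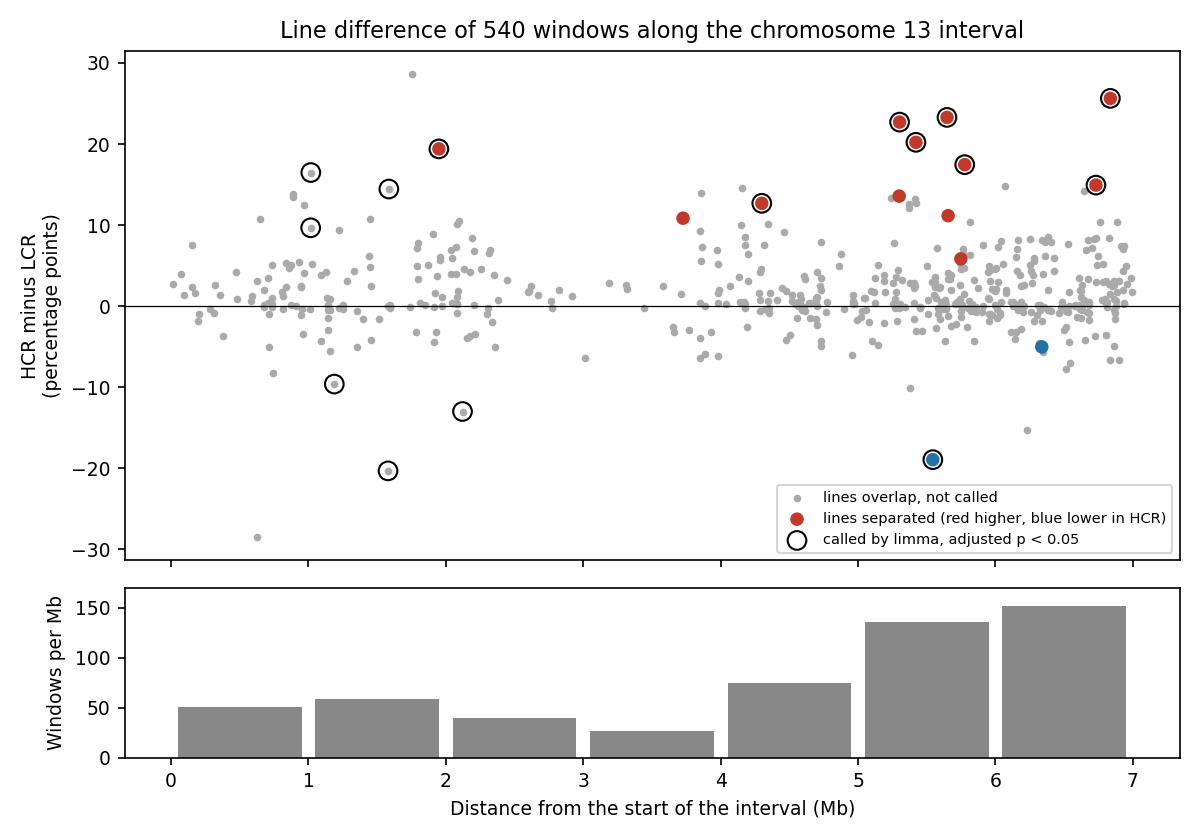
Difference of line means (upper y axis, HCR minus LCR in percentage points) of the 540 common windows against their distance from the start of the interval in Mb; the lower bars count the common windows in each Mb. Filled points are the 14 windows with separated lines and open circles the 15 windows called by limma, from -20.3 to 25.6 points, and 8 of the separated windows lie between 5 and 6 Mb from the start.

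Most of the 14 separated common windows lay in the sixth megabase, from 43 to 44 Mb. It held 8 of the 14 (5.88% of its 136 common windows), 7 higher and 1 lower in HCR, and 5 called windows. The megabase from 39 to 40 Mb held 6 called windows but 1 separated window, and the first megabase held 0 of either, counting common windows only. The mean level of the sixth megabase was 31.8% ± 1.12 in the 6 HCR samples and 29.5% ± 1.32 in the 8 LCR samples (mean ± SD). In none of the 7 megabases did the deposited mean levels of HCR and LCR samples separate completely. Differences between the line means per megabase ran from 1.29 to 2.25 points.

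The window at chr13:43302001-43303000 had the widest gap between the lines. HCR samples had 67.8% at the lowest, a median of 72.4% and 75.1% at the highest, against 39.5%, 50.4% and 52.1% in LCR samples. The lowest HCR sample stood 15.6 points above the highest LCR sample. Means were 72.1% ± 2.41 in the 6 HCR samples and 49.4% ± 4.14 in the 8 LCR samples (mean ± SD), a difference of 22.7 points. LCR replicate 8, at 39.5%, was the one low value, and the other LCR samples lay within 49.5% to 52.1%.

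A window 3 kb below it, at chr13:43299001-43300000, was separated in the same direction but not called. HCR samples ran from 47.6% through a median of 54.3% to 58.6%, and LCR samples from 24.4% through 43.3% to 46.7%. The lines were 0.907 points apart at their nearest samples, HCR replicate 5 and LCR replicate 3. The adjacent window below, at 43298001, averaged 42.2% in HCR and 42.4% in LCR. On the other side of the pair, 5 kb above 43302001, a window was unmethylated at 0.624% in HCR and 0.767% in LCR.

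At chr13:43421001-43422000 HCR samples had 60.7% at the lowest, a median of 62.5% and 71.6% at the highest, against 31.5%, 46.4% and 55.5% in LCR samples. HCR replicates 3 and 6 stood together near the top, and LCR samples were widely spread, with LCR replicate 4 lowest and LCR replicate 5 highest. Means were 65.0% ± 5.02 in HCR and 44.8% ± 7.92 in LCR, a difference of 20.2 points. The adjacent windows differed from it and from each other. The one below averaged 23.7% in HCR and 10.9% in LCR with overlapping samples, and the one above averaged 73.1% in HCR and 76.2% in LCR.

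Among these 14, the window with a nearly unmethylated line was at chr13:43544001-43545000, where HCR was lower. HCR samples had 0% at the lowest and a median of 0%, with HCR replicate 1 at 0.746% and HCR replicate 2 at 5.51%. LCR samples had 12.7% at the lowest, a median of 20.6% and 24.4% at the highest. Means were 1.04% ± 2.21 in the 6 HCR samples and 19.96% ± 3.66 in the 8 LCR samples (mean ± SD), a difference of -18.9 points. The nearest common windows did not share it: 3 kb below, HCR averaged 6.96% and LCR 3.93%, and 11 kb above, HCR averaged 20.8% and LCR 19.4%.

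At chr13:43647001-43648000 HCR samples ran from 72.4% through a median of 76.7% to 83.4%, and LCR samples from 44.3% through 56.4% to 59.6%. The gap between the lines was 12.7 points, the second widest of the interval. Means were 77.4% ± 3.62 in HCR and 54.1% ± 5.31 in LCR, a difference of 23.3 points. Within 8 kb above, the window at chr13:43655001-43656000 was also higher in every HCR sample, with 59.6% ± 4.29 in HCR and 48.4% ± 4.48 in LCR. Its lines were 1.43 points apart at the nearest samples, and it was not called. Between them, 2 kb below 43655001, a window was unmethylated at 2.52% in HCR and 3.70% in LCR.

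The remaining separated windows of this megabase were at 43748001 and 43776001. At chr13:43776001-43777000 HCR samples were tightly grouped, from 67.8% through a median of 71.6% to 74.3%, whereas LCR samples ran from 42.8% through 53.0% to 64.2%. Means were 71.0% ± 2.38 in HCR and 53.6% ± 7.66 in LCR, a difference of 17.5 points. At chr13:43748001-43749000 the difference was 5.84 points, with 41.4% ± 2.20 in HCR and 35.5% ± 4.67 in LCR. Its nearest samples, HCR replicate 5 and LCR replicate 2, were 0.152 points apart.

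**Figure D3:**
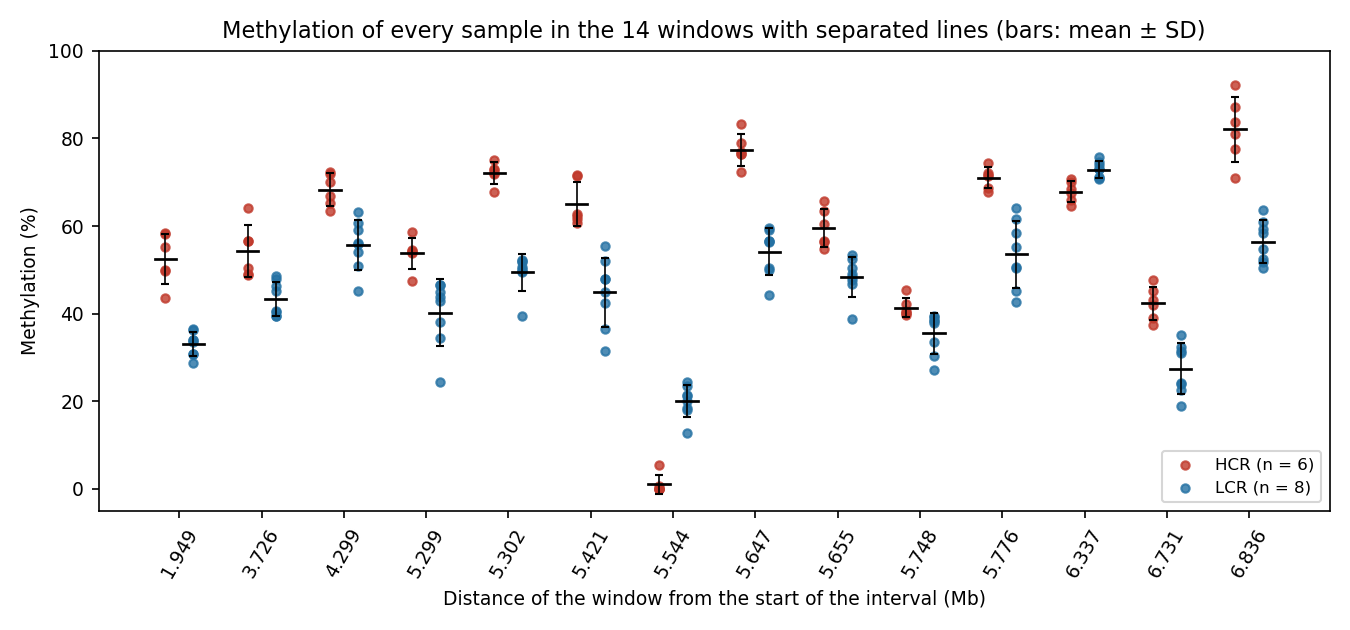
Methylation (y axis, percent) of every HCR sample (n = 6) and LCR sample (n = 8) in the 14 windows with separated lines, placed by distance from the start of the interval in Mb; black bars are mean ± SD. HCR points lie above all LCR points in 12 windows and below them at 5.544 and 6.337 Mb, and the gap ranges from 0.148 to 15.6 points.

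The largest difference of the interval among separated windows was in the last megabase, at chr13:44836001-44837000. HCR samples had 70.9% at the lowest, a median of 82.4% and 92.2% at the highest, against 50.4%, 56.6% and 63.6% in LCR samples. Means were 82.1% ± 7.46 in the 6 HCR samples and 56.5% ± 4.80 in the 8 LCR samples (mean ± SD), a difference of 25.6 points. HCR replicate 6 was the HCR sample nearest to LCR and HCR replicate 1 the farthest. The flanking common windows were at 64.6% in HCR and 63.1% in LCR, 4 kb below, and at 15.4% in HCR and 12.96% in LCR, 10 kb above.

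At chr13:44731001-44732000 HCR samples ran from 37.5% through a median of 42.5% to 47.7%, and LCR samples from 18.9% through 27.6% to 35.0%, a difference of means of 14.9 points. The adjacent window above had a smaller difference in the same direction, with 60.7% in HCR and 52.2% in LCR. Its samples overlapped. At chr13:44337001-44338000 HCR was lower by a small margin, with 67.8% ± 2.31 in HCR and 72.9% ± 1.87 in LCR. The lines there were 0.148 points apart, and the window was not called.

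Of the 3 separated windows below 43 Mb, the one at chr13:39949001-39950000 had the clearest gap. HCR samples ran from 43.6% through a median of 52.5% to 58.3%, and LCR samples from 28.8% through 33.7% to 36.4%. The difference of means was 19.4 points, with 52.5% ± 5.77 in HCR and 33.1% ± 2.68 in LCR. At chr13:42299001-42300000 means were 68.3% ± 3.71 in HCR and 55.6% ± 5.75 in LCR, and the lines were 0.171 points apart. This call and that of the window at 44731001 were made in 3 of the 14 fits that left out a sample, and neither was made without moderation of the variance. At chr13:41726001-41727000 means were 54.3% ± 6.00 in HCR and 43.4% ± 3.89 in LCR. There the lines were 0.34 points apart, and the window was not called.

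In 6 further windows a call was made although 1 or 2 samples of each line lay within the range of the other, and all 6 lay between 39016001 and 40122000. These calls were made in 1 to 11 of the 14 fits that left out a sample. An adjacent pair at chr13:39016001-39018000 was higher in HCR in both windows. The lower window averaged 82.1% ± 4.00 in HCR and 72.4% ± 2.52 in LCR, and the upper one 53.2% ± 5.32 in HCR and 36.8% ± 6.91 in LCR. In both, HCR replicate 3 was the HCR sample nearest to LCR. At chr13:39188001-39189000 HCR was lower, at 3.10% ± 3.41, against 12.7% ± 3.72 in LCR. HCR replicate 4, at 9.15%, crossed into the LCR range there.

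Windows called in opposite directions stood 6 kb apart. At chr13:39579001-39580000 HCR samples ran from 28.5% through a median of 48.7% to 55.4%, and LCR samples from 53.6% through 65.0% to 69.4%. HCR replicates 4 and 6 were at 28.5% and 29.6%, and the other HCR samples lay at 46.6% or above. At chr13:39585001-39586000 the order was the reverse, with 71.9% ± 2.82 in HCR and 57.5% ± 6.63 in LCR. The common window between them, at 39582001, had 31.9% in HCR and 31.8% in LCR. At chr13:40121001-40122000 HCR was again lower, with 44.3% ± 5.75 in HCR and 57.2% ± 3.88 in LCR.

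Large differences of means also occurred without a call. In 25 windows that were neither separated nor called, the means differed by at least 10 points. The 2 with the largest difference of means in the interval, chosen after their values were seen, were among them. At chr13:39750001-39751000 HCR samples had 56.2% at the lowest, a median of 74.4% and 90.3% at the highest, against 9.09%, 44.4% and 67.6% in LCR samples, a difference of 28.6 points. At chr13:38627001-38628000 HCR samples had 0%, 11.1% and 22.7%, against 14.0%, 37.97% and 75.0% in LCR samples, a difference of -28.5 points. In both windows each line was spread over more than 20 points, and the lines overlapped.

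Windows with a missing value added 5 separated windows among 234 (2.14%), 4 higher and 1 lower in HCR. Over all windows that lacked a value in some sample 1.24% were separated, a share that fewer samples make easier to reach. At chr13:39565001-39566000 HCR had 80.4% ± 2.78 (SD, n = 5) and LCR 60.1% ± 7.82 (SD, n = 8). At chr13:39009001-39010000, 7 kb below the called pair described above, HCR had 69.3% ± 6.08 (SD, n = 5) and LCR 54.6% ± 3.53 (SD, n = 7). At chr13:44295001-44296000 HCR had 2.31% ± 2.76 (SD, n = 6) and LCR 16.1% ± 9.97 (SD, n = 6). The other two, at 38692001 and 38793001, differed by 6.73 and 10.8 points.

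Most of the 14 separated windows had intermediate levels. The mean level of the 14 separated windows had a median of 53.3%, with 12 of them at 30 to 70%, 1 at 10 to 30% and 1 at 70% or more. Windows of 30 to 70% made up 50.9% of the interval's common windows. Over all common windows, 236 of the 964 separated windows were at 30 to 50% and 248 at 50 to 70%. The common windows nearest to the 20 named ones on either side gave 40 comparisons, some of them with a shared neighbour or between 2 named windows. The neighbour had the same sign of difference in 23 of the 40. HCR was higher in 15 of the 20 named windows and in 67.0% of the interval's common windows, so unrelated windows would also often share a sign. The sign was shared in 5 of the 8 adjacent neighbours, 13 of the 20 at 2 to 10 kb and 5 of the 12 over 10 kb away. The share of the 40 was close to that of all adjacent pairs of the interval and of the series given next, which are all 1 kb apart. The median size of the difference in the neighbours was 2.74 points.

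Over all adjacent windows of the interval, differences of line means shared their sign in 80 of 141 pairs (56.7%), and in 58.0% of 33265 adjacent pairs of the whole series. The correlation of the differences across these adjacent pairs was r = 0.28 in the interval and r = 0.17 in the whole series. HCR was higher in 67.0% of the interval's common windows and 64.6% of all, so windows without any link would also often share a sign. Sites share libraries and are not independent replicates, so these are descriptions.

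Neighbouring windows varied together only weakly within the lines. For each pair of windows, deviations from the line means were correlated over the 14 samples. The median Pearson r of the 141 adjacent pairs was 0.07 (quartiles -0.10 and 0.25) in the interval, 0.04 in the rest of chromosome 13 and 0.07 over the other autosomes. At 2 to 10 kb it was 0.04 in the interval, at over 10 to 100 kb 0.04 and at over 100 kb to 1 Mb 0.03. Pairs of an interval window with a window of chromosome 14, which cannot be neighbours, had a median of 0.03. In windows of 10 to 90% the 67 adjacent pairs of the interval had a median of 0.13, against 0.04 in the rest of chromosome 13 and 0.08 over the other autosomes. With libraries centred, an alternative added after seeing the data, these medians were 0.03 in the interval, 0.02 in the rest of chromosome 13 and 0.05 over the other autosomes. Intervals of other chromosomes with line differences were close, with medians for adjacent pairs of all levels of 0.12 at 5 to 11 Mb of chromosome 17 and 0.06 at 78 to 86 Mb of chromosome 10. The median for adjacent pairs of the interval was -0.04 over HCR samples only and 0.10 over LCR samples only, from 6 and 8 samples.

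**Figure D4:**
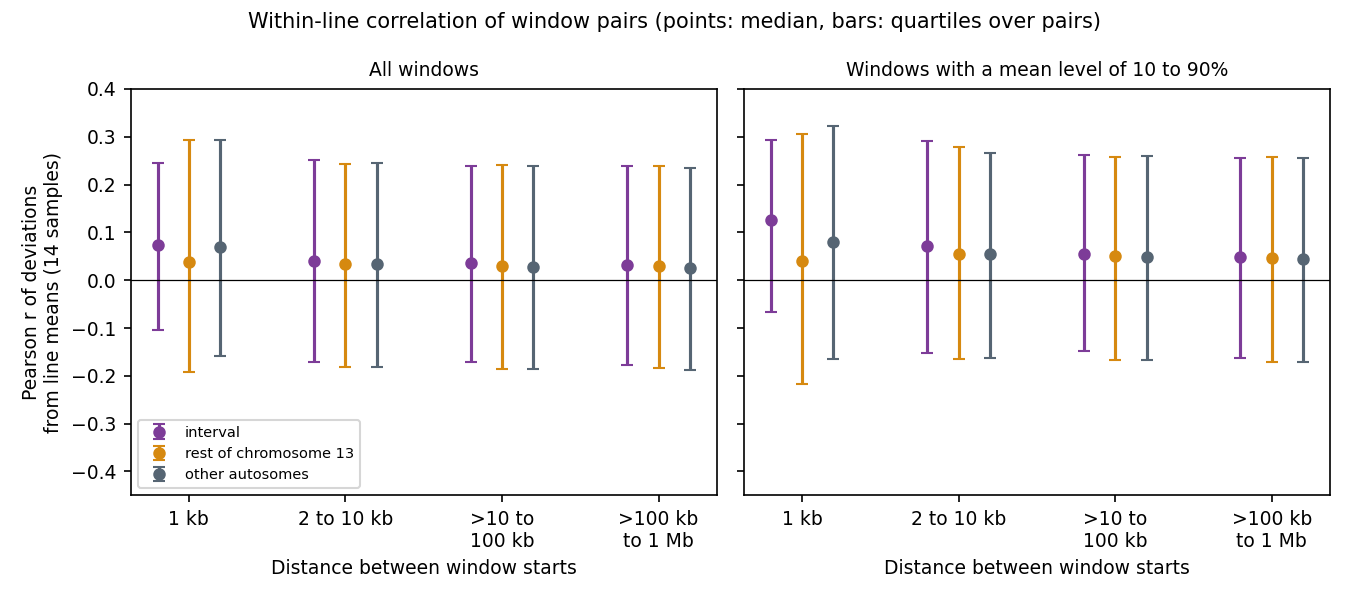
Median (points) and quartiles (bars) of Pearson's r between deviations from the line means of 2 windows over 14 samples, by the distance between the windows, for the interval, the rest of chromosome 13 and the other autosomes; the left panel uses all common windows and the right panel those with mean levels of 10 to 90%. The medians lie between 0.02 and 0.13, and the quartile ranges of the 3 sets overlap at every distance.

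Adjacent pairs with a high correlation were found in the interval and elsewhere. Of its adjacent pairs 7.09% had r over 0.5, against 9.54% in the rest of chromosome 13, 9.27% over the other autosomes and 5.17% of the pairs with chromosome 14. The pair at 43369001 and 43370001 had r = 0.73, with line differences of 12.6 and 12.2 points. The pair at 44514001 and 44515001 also had r = 0.73, with line differences of -2.54 and -7.69 points, and the pair at 42697001 and 42698001 had r = 0.73 with 1.01 and 4.26 points. These 3 are the highest of 141 pairs, and the 3 lowest had r = -0.64, -0.51 and -0.51. All 6 were chosen after their values were seen.

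The 14 separated windows varied together only weakly within lines. Among their 91 pairs the median r of deviations within lines was 0.17, with 9 pairs at 0.5 or above and 1 at -0.5 or below. Interval pairs over 100 kb to 1 Mb apart had a median of 0.03, with 5.25% over 0.5, against 9.89% of the 91. Between windows of 10 to 90% at that distance the median was 0.05, with 5.85% over 0.5. The sets are not matched in distance, because the 91 pairs lay 3 to 4887 kb apart. With libraries centred the median of the 91 pairs was 0.13. In deposited levels without LCR replicate 7 it was -0.02, with 3 pairs at 0.5 or above and 5 at -0.5 or below. The 91 pairs are not given without any other sample, so this change cannot be assigned to LCR replicate 7. The median of all adjacent pairs of the interval went from 0.07 to 0.05 without LCR replicate 7, and leaving out each sample in turn gave 0.04 to 0.10. LCR replicate 7 was the lowest LCR sample in 8 of the 14 windows, and in 24.1% of the interval's windows and 21.6% of all common windows. It was also the sample with the most missing values. No HCR sample stood nearest to LCR throughout: HCR replicate 1 did so in 4 windows, HCR replicates 5 and 6 in 3 each, HCR replicate 4 in 2 and HCR replicates 2 and 3 in 1 each. On the LCR side, LCR replicates 3 and 6 stood nearest to HCR in 4 windows each.

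**Figure D5:**
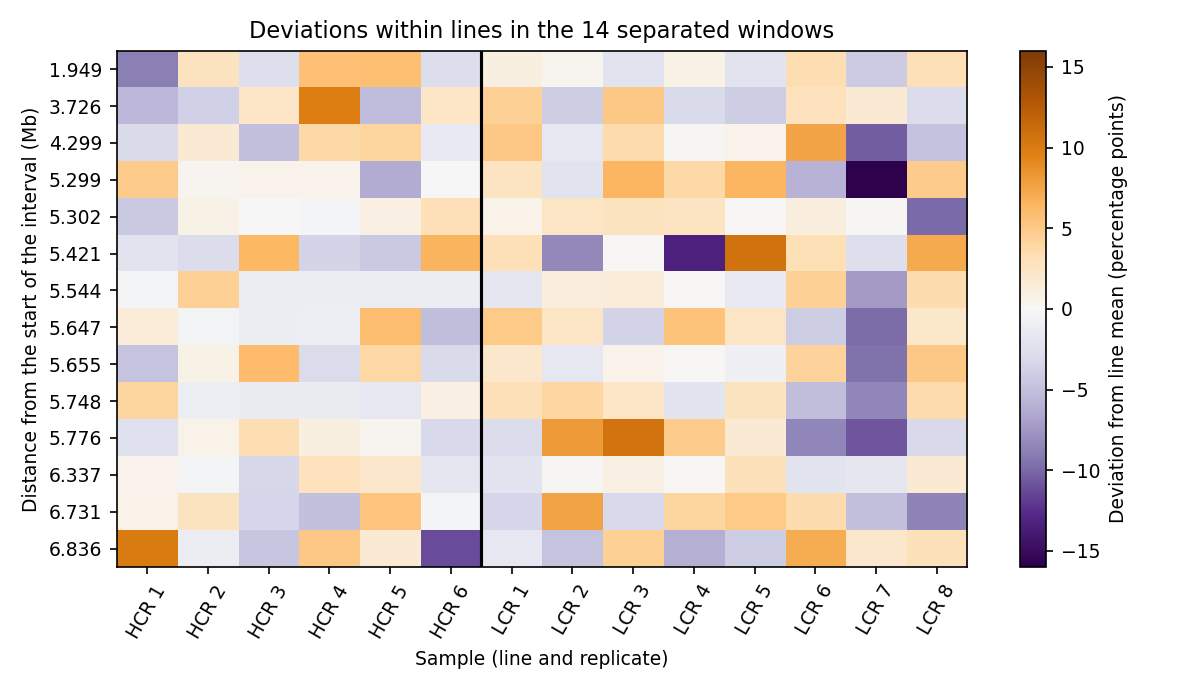
Deviation of each sample (columns, HCR left of LCR) from its line mean in percentage points (colour) in the 14 separated windows (rows, by distance from the start of the interval in Mb). LCR replicate 7 is the lowest LCR sample in 8 rows, and at 5.299 Mb its level was 24.4% against an LCR mean of 40.2%.

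The spread within lines in the interval was close to that in windows of like level elsewhere on the chromosome. Each sample's mean absolute deviation from its own line mean was 4.00 ± 0.459 points in the interval and 4.01 ± 0.415 points in the rest of chromosome 13 weighted to the same mix of 5 level classes (SD, n = 14). The difference was -0.00769 points (SE 0.043), with 4 samples higher and 10 lower in the interval (exact permutation test by sign flips, 2-sided, p = 0.869, adjusted p = 0.869). Without the matching on level the deviation was 0.104 points larger in the interval (exact permutation p = 0.0171). LCR replicate 2 had the largest excess in the interval, 0.403 points.

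The 4 windows with the largest spread within lines, chosen by that spread after the values were seen, included the window at 38627001 described above, whose lines differed by -28.5 points. In the other three the lines also overlapped. At chr13:40215001-40216000 HCR samples ran from 15.9% through a median of 21.9% to 50.4%, and LCR samples from 6.73% through 34.8% to 61.2%. HCR replicates 1 and 4 stood at 50.4% and 48.8%, and the other HCR samples at 22.5% or below. At chr13:38150001-38151000 HCR replicate 3 had 71.4%, the other HCR samples 0% to 20.9%, and LCR samples 0% to 27.8%. At chr13:43289001-43290000, 10 kb below the separated pair near 43.3 Mb, LCR replicate 8 had 11.7% and HCR replicate 3 had 39.3%, whereas the medians were 71.5% in HCR and 60.1% in LCR.

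The edges of the interval fell between windows with small line differences. The first window inside, at 38013001, had 54.5% in HCR and 51.7% in LCR, and the last outside below it, at 37985001, had 58.1% in HCR and 57.8% in LCR. The last window inside, at 44992001, had 48.3% in HCR and 46.5% in LCR, and the next outside, at 45012001, had 69.8% in HCR and 73.3% in LCR. The window at 45012001 is not a common window, as only 6 LCR samples had a value there.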

How the data were processed

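Per the submitters' processing notes, the tools were FastQC, Trim Galore 0.6.10 for trimming, and Bismark with Bowtie2 for alignment, on the rn7 build. The authors deposited percent methylation per library in windows of 1000 bp; for the coverage minimum and the windowing tool the sources used here give nothing. Each window has values in at least 4 samples per line. Depth is unknown, so errors are spreads between samples. A window averages the cytosines read in it, so libraries that cover different CpGs can differ without a difference in methylation.

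The members, lists and tests were chosen with earlier results of these data known. Levels were transformed to log2((level + 0.01)/(1 - level + 0.01)), level as a proportion, and fitted with limma 3.58.1 in R 4.3.3 (line as factor, variance trend, Benjamini-Hochberg adjustment over 135802 windows, called at an adjusted p under 0.05). The fit was tested on simulated data. Named windows were all separated or called windows of the interval. Separation, correlations and exact sign-flip tests (16384 flips) were run in Python 3.11.15 with scipy 1.17.1, pandas 2.3.3 and numpy 2.4.6. Alternatives were other offsets and scales, minimum differences, centring, quantile normalization, leaving out each sample and a replicate block. All columns were matched by library name, with 0 unused.

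Gene positions on rn7 were not used here, because the gene table given is on GRCr8. Windows are therefore named by position, without genes or printed sequence.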

Additional observations from a re-analysis of the deposited data

Results flagged for a closer look

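Each line's values in the 20 named windows and in 4 interval measures (mean level, within-line deviation, missing values and level relative to the rest of the chromosome) were tested for an outlying sample by Dixon's ratio. Of 48 such sets 4 held one, where chance gives about 1 in 20. At chr13:39579001-39580000 LCR replicate 6 had 53.6% and the other LCR samples 63.0% to 69.4%, so that it was the LCR sample inside the HCR range. At chr13:43302001-43303000 LCR replicate 8 had 39.5% and the other LCR samples 49.5% to 52.1%. At chr13:43544001-43545000 HCR replicate 2 had 5.51% and the other HCR samples 0% to 0.746%. At chr13:43655001-43656000 LCR replicate 7 had 38.9% and the other LCR samples 46.7% to 53.4%.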

How the results depend on the processing

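The 15 calls of the interval became 9 without moderation of the variance, 1 with a minimum difference of 25 points, 9 with the 12 samples numbered 1 to 6 and 3 when the replicate number was a block for those samples. They were 7 to 12 when each sample was left out, with the lowest count without HCR replicate 2; 7 of the 15 were called in all 14 of these fits. Same-numbered samples did not deviate together (r from -0.03 to 0.03), so the numbers were not taken to pair the samples, and 3 of the 15 were called with it. The counts stayed between 11 and 17 under the other 6 settings. Separated windows numbered 6 with a gap of at least 5 points, and 14 to 18 when each sample was left out. Leaving out a sample cannot undo a separation, so that count could not fall below 14 and is no check on it. All 20 named windows kept the sign of their difference after centring and when each sample was left out. In the 14 separated windows leaving out a sample cannot change the sign. The other 6 were named by a call on the same difference, so little is learnt from the kept signs.

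The interval's level difference between lines was 0.828 to 2.95 points over 4 settings. The interval was lower than the rest of chromosome 13 in all settings, and did not pass against all other autosomal windows (-0.196 points, lines pooled, 6 of 14 samples higher). The spread within lines changed sign: it was 0.104 points larger in the interval with no matching on level (exact permutation p = 0.0171), 0.048 against all other autosomal windows, 0.0249 without the separated windows and 0.00173 on the log2 logit scale. Leaving out each sample gave -0.0548 to 0.0136. The adjacent correlation was 0.0242 by Spearman's rho, 0.17 after centring, 0.13 in windows of 10 to 90%, -0.0446 in HCR samples, 0.0987 in LCR samples and 0.03 in centred windows of 10 to 90% (the last added after seeing the data), and 0.04 to 0.10 when each sample was left out. Centring gives windows near 0% a shared deviation by construction. For the other changes the cause was not tested.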
